A study of Mus musculus with 51 samples.

Results

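The 10 genes described here are the receptors Fgfr1, Fgfr2, Fgfr3 and Egfr, the feedback inhibitors Spry1, Spry2, Spry4 and Dusp6, and the transcription factors Etv4 and Etv5. They were taken by name out of 22235 protein-coding genes, and all 10 were found in the annotation. All coordinates are of mm9. Every peak that overlapped the gene body or the 20 kb on each side of it was assigned to the gene. This gave 734 peaks over 6 lists, which covered H3K27ac and H3K4me1 at each of 3 stages. The cells were derived from mouse embryonic stem cells, and the strain background on the labels is C57/BL-6. The neural progenitors (aNPC) were grown in DMEM-F12 with N2 and with EGF and FGF2 at 10 ng/ml each. Early astrocytes (eA) were taken after 1 day, and late astrocytes (lA) after 5 days, in DMEM with 1% FBS and LIF. EGF and FGF2 are not among the components that the labels list for this second medium. The change of medium and the stage therefore cannot be told apart. All cells are cultured, and no age, transgene or knockdown enters these 6 lists.

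EGF and FGF2 are the mitogens that keep neural progenitors dividing in culture. They bind receptor tyrosine kinases, EGFR and the FGF receptors, which signal through RAS and the kinase ERK. ERK signalling switches on its own brakes: the Sprouty proteins, which act between the receptor and RAF, and DUSP6, a phosphatase that removes phosphate from ERK. It also switches on Etv4 and Etv5, ETS family transcription factors that are common readouts of FGF signalling. H3K27ac marks active promoters and enhancers, while H3K4me1 marks enhancers whether active or only primed. FGFR3 and EGFR are also known from the astroglial lineage, where Fgfr3 is a marker of astrocytes and their precursors.

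The lists held 79413, 83433 and 92700 H3K27ac peaks at aNPC, eA and lA, and 154238, 185478 and 208333 H3K4me1 peaks. Each list was called on the merged reads of 2 replicates. There is thus no replicate error, no difference below was tested, and the depth behind a peak is unknown. Since −log10 q grows with depth, peaks of different stages were compared by percentile, the share of peaks of the same list with a lower −log10 q. The identity of the cultures was looked up in promoter H3K27ac. Among progenitor markers, Nes and Sox2 held a promoter peak at all 3 stages, and Olig2 held one only within 1 kb of a start site. Of 7 astrocyte markers, 4, 4 and 5 held one at aNPC, eA and lA, with Aqp4 only at lA, Gja1 at eA and lA, and S100b only at aNPC. Within 1 kb of a start Gja1 held one at all stages. Of 3 neuronal markers, Tubb3 held one at every stage, whereas Dcx had none and Rbfox3 held one only within 1 kb of a start, at eA. None of the markers of embryonic stem cells (3), microglia (3), oligodendrocytes (3) or endothelium (2) held a promoter H3K27ac peak at any stage. A promoter peak gives neither the share of cells that carry the mark nor its amount per cell.

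The sequences shown are the top-ranked distal sites of 7 loci, and the promoters of genes whose start-site peaks ranked lower after aNPC. They were chosen after these values were seen. Each line below gives the 201 bases centred on the summit of the highest-ranked H3K27ac peak of 1 distal site, namely the one that ranked highest in its locus away from every start site, at aNPC for Egfr and Etv4 and at lA for the others. They are read 5′ to 3′ on the strand of the gene from mm9 and lie outside annotated exons. Capitals mark any match to letters of AP-1 (TGANTCA), NF1 (TGCCAAG), RUNX (TGTGGTT), Stat (TTCCNGGAA), ETS (CCGGAAG or CAGGAAG), Sox (ACAATGG) or the CCAAT box (CCAAT), searched on both strands.
Egfr distal: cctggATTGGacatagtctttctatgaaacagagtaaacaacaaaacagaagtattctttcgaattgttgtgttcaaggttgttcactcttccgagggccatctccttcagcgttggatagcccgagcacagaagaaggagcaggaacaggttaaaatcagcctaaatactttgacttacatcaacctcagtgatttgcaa
Etv4 distal: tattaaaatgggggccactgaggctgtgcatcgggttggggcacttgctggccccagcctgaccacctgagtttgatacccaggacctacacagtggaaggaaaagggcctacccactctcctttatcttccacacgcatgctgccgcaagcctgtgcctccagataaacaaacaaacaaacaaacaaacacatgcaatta
Fgfr3 distal: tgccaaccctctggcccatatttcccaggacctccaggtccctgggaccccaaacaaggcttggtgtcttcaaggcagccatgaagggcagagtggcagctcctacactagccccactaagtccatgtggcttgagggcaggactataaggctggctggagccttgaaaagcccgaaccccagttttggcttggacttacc
Fgfr1 distal: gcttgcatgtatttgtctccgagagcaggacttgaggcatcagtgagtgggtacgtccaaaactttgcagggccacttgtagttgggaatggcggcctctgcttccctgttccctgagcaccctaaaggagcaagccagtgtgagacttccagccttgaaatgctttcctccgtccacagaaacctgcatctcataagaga
Fgfr2 distal: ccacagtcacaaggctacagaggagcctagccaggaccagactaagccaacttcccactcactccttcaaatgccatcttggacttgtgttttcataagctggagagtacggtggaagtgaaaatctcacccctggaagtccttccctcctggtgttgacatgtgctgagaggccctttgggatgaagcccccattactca
Etv5 distal: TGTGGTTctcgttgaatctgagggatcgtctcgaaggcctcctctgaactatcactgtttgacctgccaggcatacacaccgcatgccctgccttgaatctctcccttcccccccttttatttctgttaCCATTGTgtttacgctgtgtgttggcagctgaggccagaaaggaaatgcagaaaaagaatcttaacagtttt
Spry1 distal: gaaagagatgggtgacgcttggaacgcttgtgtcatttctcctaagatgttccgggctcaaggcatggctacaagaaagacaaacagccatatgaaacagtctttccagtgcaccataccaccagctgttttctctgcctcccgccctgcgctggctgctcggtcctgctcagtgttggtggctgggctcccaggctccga

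The Egfr and Etv4 windows are shown because their sites ranked higher at aNPC than later. Distances are from the reference start, the most upstream start with a consensus coding sequence. The Egfr window (chr11:16731568-16731768, plus strand) lies in an intron 79.5 kb downstream of the start. The Etv4 window (chr11:101651871-101652071, minus strand) is intergenic, 5.3 kb upstream. Windows of Fgfr3 (chr5:34048647-34048847, plus, intergenic, 15.6 kb upstream), Fgfr1 (chr8:26646853-26647053, plus, intronic, 17.7 kb downstream of the start) and Fgfr2 (chr7:137287429-137287629, minus, intergenic beyond the 3′ end) come from sites that ranked higher at lA than at aNPC or, at Fgfr2, had no aNPC peak. The last pair, Etv5 (chr16:22405840-22406040, minus, intronic, 33.9 kb downstream of the start) and Spry1 (chr3:37553252-37553452, plus, intergenic, 14.5 kb downstream of the start), belong to genes whose start-site peak ranked lower after aNPC while the distal site ranked higher. Letters of the search occurred in windows of Egfr and Etv5. The Egfr window held CCAAT, which 21% of all aNPC H3K27ac windows of this length held. The Etv5 window held RUNX letters, found in 3.93% of lA windows, and Sox letters, found in 2.64% of them. No AP-1, NF1, Stat or ETS letters were found in these 7 windows, against 5.7%, 4.28%, 0.694% and 10.7% of lA windows. A match is only a run of letters, and its absence says nothing of the factor.

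For the promoters, the 200 bases upstream of the most upstream coding start were read in the same way. Those of Dusp6 (chr10:98725665-98725864, plus), Etv4 (chr11:101646686-101646885, minus) and Etv5 (chr16:22439793-22439992, minus) are shown because their start-site H3K27ac ranked lower at lA than at aNPC by 10 points or more and they held a match, and that of Egfr (chr11:16652006-16652205, plus) because it alone of the 10 held ETS letters.
Dusp6 upstream: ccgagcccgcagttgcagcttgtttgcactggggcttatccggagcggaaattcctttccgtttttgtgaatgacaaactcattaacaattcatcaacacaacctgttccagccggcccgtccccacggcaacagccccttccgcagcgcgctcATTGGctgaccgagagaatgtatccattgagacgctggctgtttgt
Etv4 upstream: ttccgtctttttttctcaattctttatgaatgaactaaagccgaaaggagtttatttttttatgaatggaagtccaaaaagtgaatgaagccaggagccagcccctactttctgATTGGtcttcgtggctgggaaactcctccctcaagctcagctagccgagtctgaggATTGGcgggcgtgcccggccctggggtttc
Etv5 upstream: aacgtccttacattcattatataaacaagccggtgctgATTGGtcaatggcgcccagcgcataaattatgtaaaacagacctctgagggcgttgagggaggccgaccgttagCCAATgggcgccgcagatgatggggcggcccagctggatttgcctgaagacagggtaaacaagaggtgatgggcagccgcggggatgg
Egfr upstream: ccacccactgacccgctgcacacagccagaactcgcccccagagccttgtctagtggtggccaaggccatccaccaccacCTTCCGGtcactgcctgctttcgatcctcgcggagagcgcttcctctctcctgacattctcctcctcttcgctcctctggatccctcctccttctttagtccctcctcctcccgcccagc

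The Dusp6, Etv4 and Etv5 windows held CCAAT on 1 strand or the other, at 1, 2 and 2 places. Spry1 and Spry4, whose start-site peaks also ranked lower by that margin, held none. Fgfr3 was the only other member with this match, so 4 of 10 members held it, against 30.7% of all coding genes. CCAAT was added to the search after the sequences had been read. ETS letters, present in the Egfr window at bases −120 to −114 from the start, were found in 15.2% of coding genes.

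H3K27ac at the inhibitor and Etv loci and at Fgfr2 and Fgfr3 differed in opposite directions, with Egfr on the side of the inhibitors. Fgfr1 was nearly level. At the inhibitors and the Etv genes, the length covered by H3K27ac peaks was greatest at aNPC and lower at both later stages. At the FGF receptors it was greatest at eA or lA. At Fgfr1 it was 0.99 times the aNPC length at eA and 1.07 times at lA, where the whole lists covered 0.98 and 1.10 times. At Egfr it was lower at both later stages, at 21.1, 12.7 and 16.7 kb. Over the 4 receptors together, 2 loci (Fgfr1 and Egfr) were lower at eA and 1 (Egfr) at lA. The plot of covered length shows each locus. It was lower at eA than at aNPC in 6 of 6 inhibitor and Etv loci, where 38.5% of coding loci with a peak at either stage were lower. It was also lower at lA in 6 of 6, against 47.9% of coding loci. All 3 FGF receptor loci were higher at lA than at aNPC, against 52.1%. At eA 2 of 3 were higher, close to the 61.5% of coding loci. In total, the 4 inhibitor loci held 23, 15 and 19 H3K27ac peaks over 18.24, 12.64 and 12.04 kb at aNPC, eA and lA, with a mean −log10 q of 52.7, 33.2 and 15.6. The Etv loci held 19, 18 and 13 peaks over 13.5, 10.19 and 7.32 kb (mean −log10 q 36.7, 16.9 and 10.5), and the FGF receptor loci 21, 32 and 31 peaks over 16.5, 22.3 and 24.6 kb (24.3, 28.4 and 18.8). The mean −log10 q values depend on depth and are not compared between stages. The 10 loci together held 97, 88 and 94 H3K27ac peaks. With the same number of peaks in every H3K27ac list these counts were 97, 85 and 73, so that lA was lowest.

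**Figure D1:**
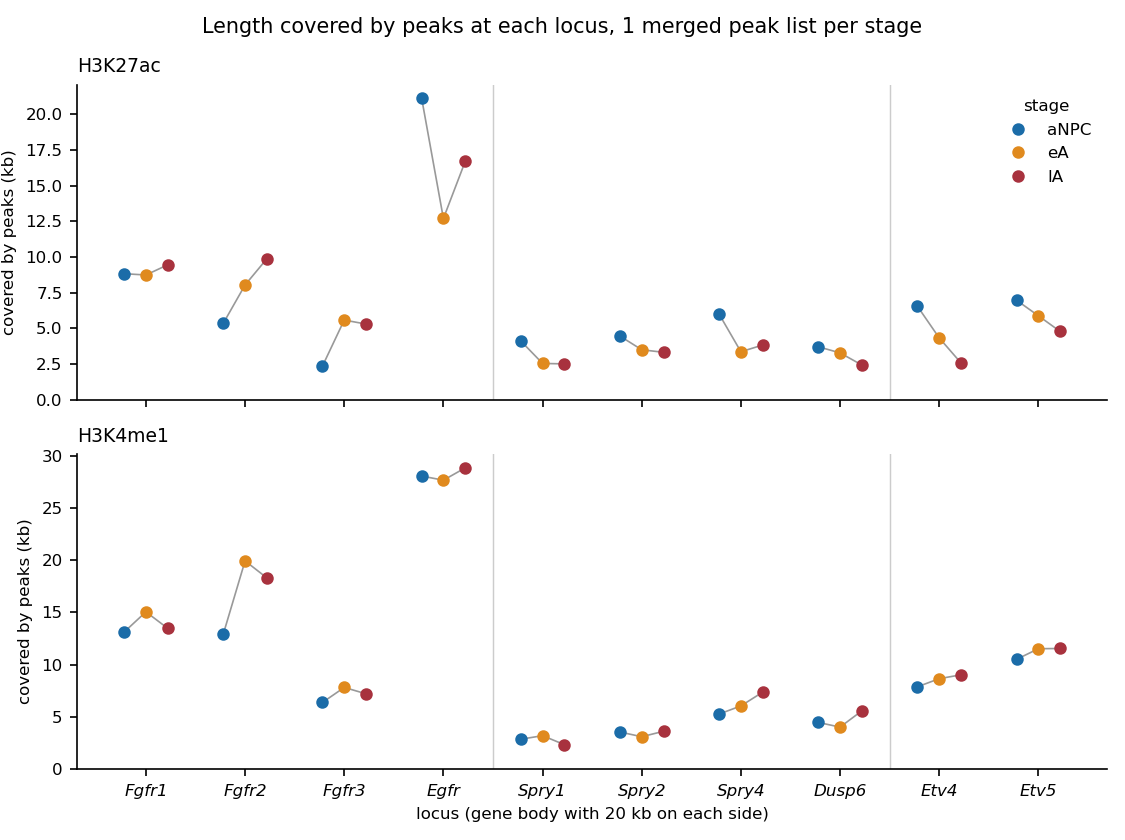
Length in kb covered by H3K27ac (top) and H3K4me1 (bottom) peaks at each of the 10 loci, with 1 point per stage and merged list and therefore no error bar. The 6 inhibitor and Etv loci are highest in H3K27ac at aNPC, the 3 FGF receptors are higher at lA than at aNPC, and Egfr is lowest at eA (12.69 kb against 21.14 and 16.69 kb).

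The percentile of the strongest H3K27ac peak within 1 kb of a start site was also lower after aNPC at the inhibitor and Etv genes, and it was mixed at the receptors. It was lower at eA than at aNPC in 6 of 6 inhibitor and Etv genes, where 36% of 11534 coding genes with such a peak at both stages were lower. In 3 of the 6 (Spry1, Dusp6 and Etv4) it was lower by 10 points or more, as in 5.63% of coding genes. At Dusp6 and Etv5 the strongest peak was not the same one throughout, as it lay upstream at aNPC and lA and inside the gene at eA. Between aNPC and lA it was lower in 6 of 6, against 54.7%, and by 10 points or more in 5 of 6, against 18.7%. The median difference over the 6 genes, lA minus aNPC, was −14.7 points, where that over coding genes was −0.48 points. Among the 4 receptors, 1 (Egfr) was lower at eA and 2 (Fgfr1 and Egfr) at lA, Egfr by about as much as Spry2. None was lower by 10 points at either stage and Fgfr3 was higher by more than 10 points at both, as were 15.9% of coding genes at eA and 10.1% at lA.

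**Figure D2:**
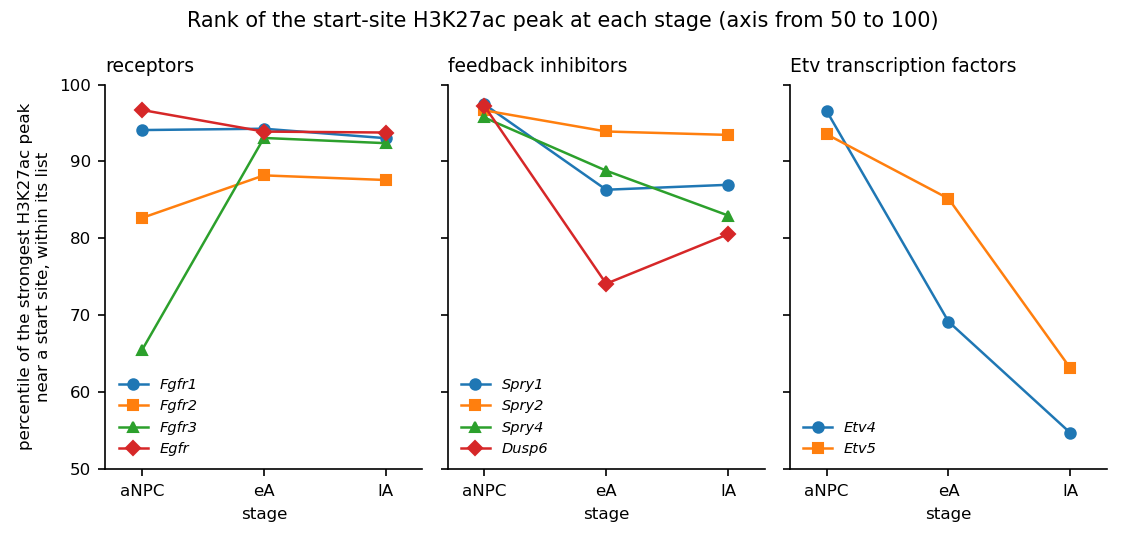
Percentile, within its own list, of the strongest H3K27ac peak within 1 kb of any start site of each gene at aNPC, eA and lA, on an axis from 50 to 100. All 6 inhibitor and Etv genes start between 93.5 and 97.4 and are lower at eA and lA, while Fgfr3 goes from 65.5 to 93.0 and 92.4. The peak taken can differ between stages, as at Dusp6 and Etv5.

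Spry1 (ENSMUSG00000037211, chr3:37538869-37543520, plus strand) encodes a Sprouty inhibitor of receptor tyrosine kinase signalling. Its locus held 5, 3 and 5 H3K27ac peaks at aNPC, eA and lA, which covered 4.11, 2.53 and 2.50 kb. Its start-site peak stood at percentiles 97.4, 86.3 and 87.0 at aNPC, eA and lA. A second H3K27ac site, 1.2 kb into the gene, stood at 93.5, 86.2 and 76.9 and its peaks covered 2638, 1259 and 710 bp. Both were thus strongest and, at the second, widest in progenitors. The intergenic site 14.5 kb downstream of the start ran the other way, at percentiles 11.6 at aNPC, 77.7 at eA and 55.4 at lA. H3K4me1 at that site stood at 66.5, 90.6 and 99.8, so that at lA it was among the highest-ranked 1% of the list. The highest-ranked of the Spry1 sites held in aNPC alone lay 17.3 kb downstream (percentile 66.6, chr3:37556017-37556382), where H3K4me1 was called at aNPC and eA and not at lA.

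Spry2 (ENSMUSG00000022114, chr14:106291166-106296036, minus strand), a Sprouty inhibitor of the same family, kept the highest start-site rank of the inhibitors after aNPC, at 96.6, 93.9 and 93.4. H3K27ac covered 4.45, 3.49 and 3.31 kb of the locus. The site 1.9 kb upstream differed more, at 93.1, 24.6 and 65.0. H3K27ac over its coding exon, 3.4 kb downstream of the start, stood at 86.4, 78.1 and 57.3. These 3 sites were highest at aNPC, and the upstream one was lowest at eA. The small site 0.9 kb upstream was the exception, at 73.1, 62.8 and 83.5. Small intergenic sites 17.9 and 23.5 kb downstream of the start were found at aNPC only, at percentiles 39.0 and 17.6.

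Spry4 (ENSMUSG00000024427, chr18:38745922-38760922, minus strand) is the other Sprouty gene here, whose product also restrains RAS and ERK signalling. H3K27ac covered 5.99, 3.35 and 3.82 kb of its locus. Its start-site peak stood at 95.7, 88.8 and 83.0. The site 0.6 kb upstream stood at 88.8, 19.5 and 18.9, and it also overlapped the promoter of the divergent gene 9630014M24Rik, so the marks of the 2 promoters cannot be told apart there. Intronic sites 4.5, 8.5 and 9.2 kb downstream of the start were found at aNPC only, at percentiles 33.5, 66.2 and 46.8. All 3 of them had H3K4me1 at every stage. The site beyond the 3′ end, 23.4 kb downstream of the start (chr18:38736999-38739159), differed the other way, with H3K27ac at 75.9, 83.1 and 92.7 and H3K4me1 at 66.8, 97.5 and 98.1. A weak H3K27ac site 14.1 kb downstream of the start was found at lA only, at percentile 11.8.

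Dusp6 (ENSMUSG00000019960, chr10:98725865-98730122, plus strand) encodes the ERK phosphatase, and H3K27ac covered 3.70, 3.27 and 2.42 kb of its locus. Its upstream site (chr10:98723813-98725588), with a summit 0.9 kb before the start, stood at 97.2, 80.8 and 80.5. Over the start of the gene body, the second site stood at 89.0, 74.1 and 32.0 and its peaks covered 1614, 1754 and 684 bp. The first was lower from eA on, while the second was still as wide at eA and narrow at lA. The site 5.9 kb downstream of the start (chr10:98731430-98732001) held H3K27ac at aNPC only, at percentile 63.7. H3K4me1 there ranked 91.0, 72.3 and 93.4 at the 3 stages, so it was present and highly ranked at lA without an H3K27ac peak.

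Etv4 (ENSMUSG00000017724, chr11:101631056-101646685, minus strand), an ETS factor induced by FGF signalling, had the largest difference between aNPC and lA among the 10 members in the strongest peak near a start. H3K27ac covered 6.54, 4.32 and 2.56 kb of its locus. The start-site peak stood at 96.6, 69.2 and 54.7, and its site covered 1575, 1333 and 523 bp. With a promoter that reached 1 kb before and 100 bp past a coding start, Etv4 held promoter H3K27ac at aNPC and at neither later stage. Of coding genes with promoter H3K27ac at aNPC, 10.1% lacked it at lA. Within 1 kb of a start on either side it held a peak at all 3 stages, with its summit 484, 779 and 1157 bp past the nearest start. The upstream site, 5.3 kb away (chr11:101651465-101653336), printed above, stood at 93.7 at aNPC and 71.1 at eA and had no H3K27ac peak at lA. H3K4me1 at the same place (chr11:101651391-101652265) stood at 97.1, 99.5 and 95.2. At lA the site thus had a high-ranking H3K4me1 peak without H3K27ac. Another 3 sites, 26.3 to 29 kb downstream of the start, lie in introns of the neighbour Dhx8. The highest of them stood at 83.9, 69.8 and 61.6.

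Etv5 (ENSMUSG00000013089, chr16:22381382-22439792, minus strand), the closest relative of Etv4 among the members, held 2 promoter sites, and H3K27ac covered 6.96, 5.87 and 4.77 kb of its locus. The one just inside the gene stood at 93.3, 85.2 and 18.6 and covered 763, 831 and 202 bp. The one 1.2 kb upstream stood at 93.5, 68.3 and 63.1. Neither kept its aNPC rank at lA. Intronic sites 5.4 and 9.1 kb downstream of the start were found at aNPC only, at percentiles 60.6 and 64.6, both with H3K4me1 at all stages. Weak sites at 50.5 and 60.2 kb were also found at aNPC only, at 2.12 and 2.29. Beside them, sites at 50.1 and 59.6 kb were found at eA only, at 51.1 and 21.1, as were sites at 1.4 kb (46.7) and 22.8 kb (2.60). The all-stage intronic site at 11.1 kb was likewise highest at aNPC, at 75.7, 64.9 and 40.9. Other intronic sites were lowest at aNPC. Those 33.0 and 33.9 kb downstream of the start stood at 17.2, 73.2 and 64.6, and at 55.0, 85.6 and 88.6, at aNPC, eA and lA. The intronic site at 10.3 kb stood at 80.0, 80.5 and 86.2. The strongest H3K27ac peak of the locus thus lay at the promoter in aNPC and in an intron at lA. At eA the intronic peak at 33.9 kb and the promoter peak just inside the gene were nearly tied, at 85.6 and 85.2.

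**Figure D3:**
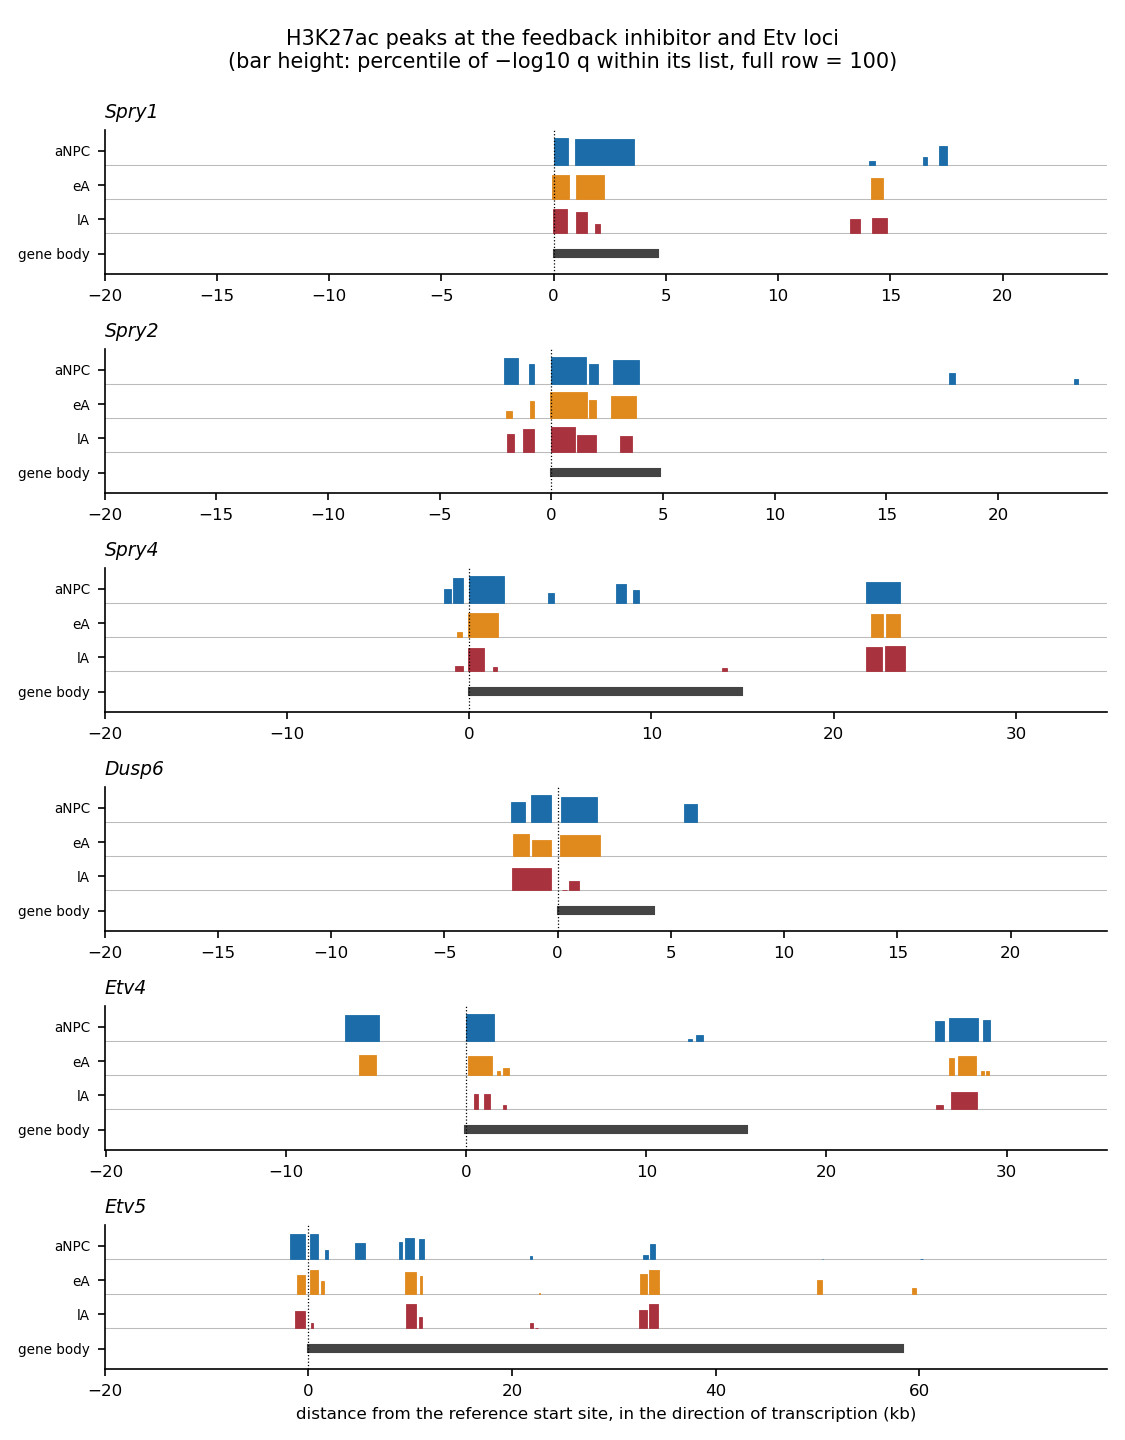
H3K27ac peaks at Spry1, Spry2, Spry4, Dusp6, Etv4 and Etv5, by distance in kb from the reference start in the direction of transcription, with 1 row per stage and the gene body below. Bar width is the width of the peak and bar height its percentile in its own list, up to 100. The tallest start-site bar of each gene is at aNPC, while the small Spry2 bar 0.9 kb upstream is tallest at lA. The Etv4 bar 5.3 kb upstream is missing at lA. The bars at 14.5 kb of Spry1, 23.4 kb of Spry4 and 33.9 kb of Etv5 are taller after aNPC.

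Fgfr3 (ENSMUSG00000054252, chr5:34064373-34079716, plus strand) encodes the FGF receptor that marks astrocytes and their precursors. Its strongest start-site peak was higher after aNPC by more than that of any other member. H3K27ac covered 2.34, 5.57 and 5.29 kb of its locus at aNPC, eA and lA. The start-site peak stood at 65.5, 93.0 and 92.4. The upstream site 15.6 kb away (chr5:34048148-34049807) stood at 67.2, 96.6 and 98.6 and was the highest-ranked H3K27ac site of all 10 loci at lA. Its neighbour, 16.7 kb upstream, stood at 8.57, 81.0 and 89.1. The site 16.5 kb downstream of the start, just past the 3′ end of the gene, had no H3K27ac peak at aNPC and stood at 75.8 and 85.0 at eA and lA. Every one of these sites was thus already higher at day 1. H3K4me1 was present at all 4 of these places at aNPC. At the 15.6 kb site it stood at 91.9, 96.1 and 93.6, and at the downstream site at 46.9, 79.5 and 88.4. At the start-site peak just inside the gene, H3K4me1 overlapped H3K27ac at aNPC only. A weaker promoter H3K27ac site 0.7 kb upstream was found at lA only and overlapped H3K4me1. The 15.6 and 16.7 kb sites lie outside the annotated body of any coding gene, with Letm1 the other coding gene that reaches into the window.

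Fgfr1 (ENSMUSG00000031565, chr8:26624126-26686186, plus strand), an FGF receptor that neural progenitors express, kept its start-site rank, at 94.1, 94.3 and 93.0, and H3K27ac covered 8.82, 8.73 and 9.44 kb of its locus. A weak promoter H3K27ac site before the most upstream start was found at lA only, at percentile 28.4. Larger differences lay in introns. The site 17.7 kb downstream of the start (chr8:26646313-26647867) stood at 74.8, 94.9 and 97.1, and that at 19 kb at 55.5, 82.0 and 91.0. The site at 25.9 kb stood at 94.996, 91.6 and 96.8. The strongest distal site was therefore at 25.9 kb in aNPC and at 17.7 kb in eA and lA. Over the exon region 56.2 kb downstream, near the 3′ end, the values ran 53.6, 47.3 and 4.61. H3K4me1 over the 17.7 kb region ranked highest at aNPC, at 98.0, and stood at 74.2 and 81.1 later, so that aNPC was highest in H3K4me1 and lowest in H3K27ac. A site 66 kb downstream of the start, in an intron of Letm2, stood at 74.1, 72.4 and 74.1.

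Fgfr2 (ENSMUSG00000030849, chr7:137306026-137410322, minus strand) encodes the remaining FGF receptor of the set. H3K27ac covered 5.34, 8.03 and 9.87 kb of its locus, the one steady order among the receptors. Its start-site peak stood at 82.7, 88.2 and 87.6. H3K27ac sites at eA and lA without an aNPC peak lay 21.4 and 64.4 kb downstream of the start in introns, and 122.2 and 123 kb downstream, beyond the 3′ end. The site at 122.2 kb (chr7:137287223-137288202) stood at 80.7 and 85.4 at eA and lA, that at 123 kb at 72.6 and 63.3, and that at 21.4 kb at 43.9 and 63.9. Both of the sites beyond the 3′ end and the 21.4 kb site had H3K4me1 at aNPC already. The intronic site at 51.2 kb was called at all stages, at 68.8, 79.0 and 80.0. The site at 99.5 kb, lowest at lA, stood at 63.2, 71.0 and 41.5.

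Egfr (ENSMUSG00000020122, chr11:16652206-16818161, plus strand) encodes the receptor for EGF and has the longest window, of 206.0 kb. H3K27ac covered 21.1, 12.7 and 16.7 kb of it, in 34, 23 and 31 peaks. Its start-site peak stood at 96.7, 93.9 and 93.8, so that it differed little. The intronic site 79.5 kb downstream (chr11:16731505-16733669), printed above, stood at 96.6, 76.7 and 84.7, and that beside it at 78.6 kb at 82.3 and 41.7 at aNPC and lA with no eA peak. At 64.1, 64.7 and 10.4 kb (the last upstream), sites were found at aNPC only, at percentiles 47.5, 55.5 and 47.8. These 5 sites were highest in progenitors. Some other intronic sites were highest at lA. The sites at 18.5, 41.9 and 57.6 kb stood at 58.8, 54.4 and 83.8, at 17.6, 47.3 and 59.9, and at 79.2, 76.6 and 89.4. A site at 42.4 kb was found at lA only, at percentile 75.4, with H3K4me1 at all stages. In the intron at 125.8 kb the values were 90.6, 85.1 and 86.7. Intronic sites at 92, 96.9 and 143 kb, held at all stages, were likewise highest at aNPC, at 65.5, 53.1 and 66.0. Of 38 Egfr sites, 11 were found at aNPC only, 8 at lA only, 14 at all stages and 0 at eA and lA together without aNPC. The shares of sites near coding genes were 19.2%, 17.2%, 29.6% and 13.8%.

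**Figure D4:**
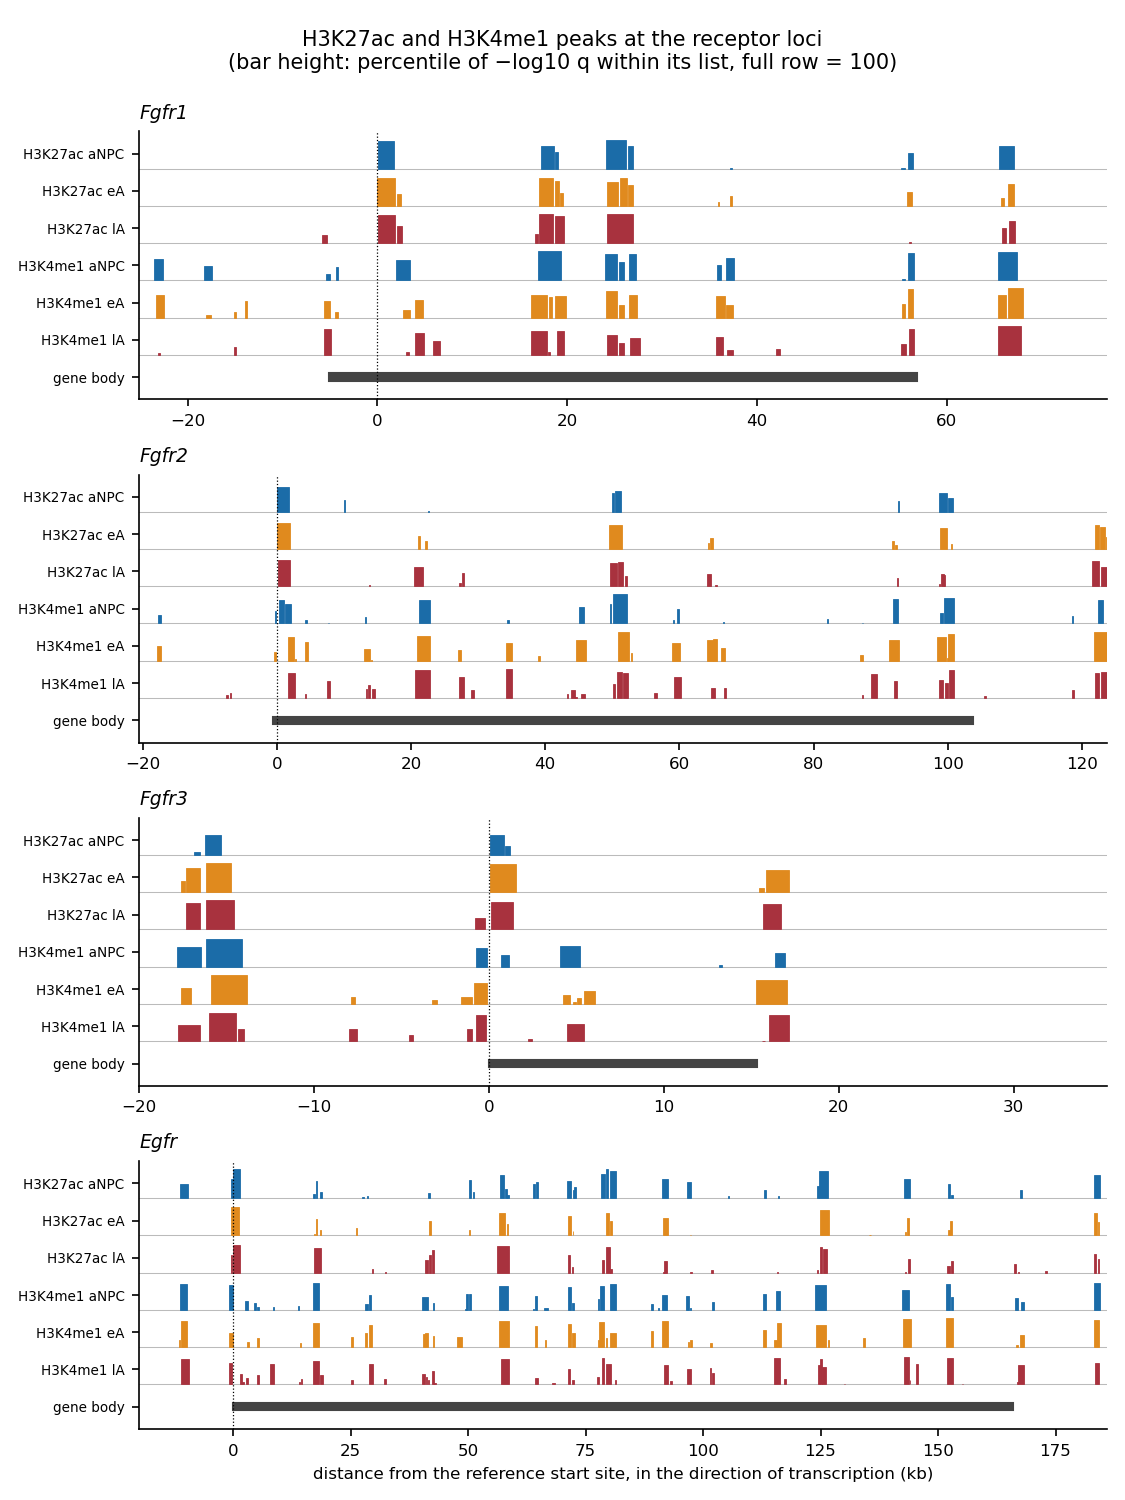
H3K27ac (upper 3 rows) and H3K4me1 (lower 3 rows) peaks at Fgfr1, Fgfr2, Fgfr3 and Egfr by distance in kb from the reference start in the direction of transcription. Bar width is the peak width and bar height its percentile in its own list, up to 100. At Fgfr3 the H3K27ac bars 15.6 kb upstream, at the start and 16.5 kb downstream are taller or present only after aNPC, and at Egfr the aNPC row holds 34 peaks against 23 at eA.

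Overlapping H3K27ac peaks of the 3 stages were merged into sites, of which the 10 loci held 123. Sites held at aNPC only made up 16 of 49 (32.7%) at the inhibitor and Etv genes and 3 of 36 (8.33%) at the FGF receptors, where they made up 19.2% of sites within 20 kb of coding genes. Sites held at lA only were 3 of 49 and 8 of 36, against 17.2%. Sites held at eA and lA but not at aNPC were 1 of 49 and 6 of 36, against 13.8%. The 4 inhibitor loci had 12 sites at all stages, 9 at aNPC only and 2 at lA only, and no other combination. Over all members, 47 of 123 sites were held at all stages, against 29.6% of sites near coding genes. The other combinations were 11 sites at eA only (12.2% near coding genes), 5 at aNPC and eA (5.25%) and 4 at aNPC and lA (2.91%). With a stage counted only where a summit lay within 250 bp of the top summit, 32 of 123 sites were held at all stages.

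**Figure D5:**
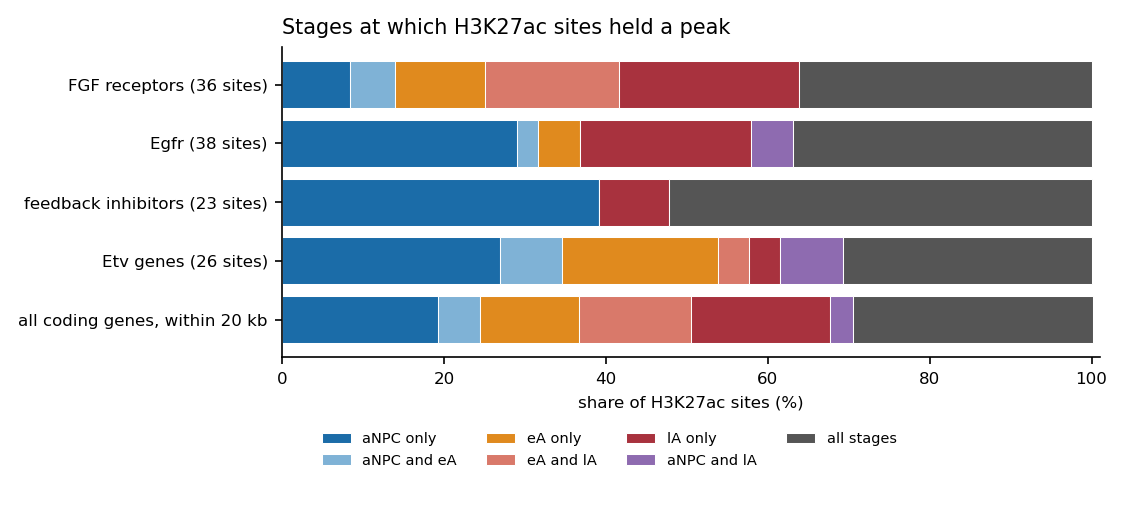
Share, in percent, of H3K27ac sites that held a peak at each combination of stages, for the FGF receptors (36 sites), Egfr (38), the feedback inhibitors (23), the Etv genes (26) and all sites within 20 kb of coding genes. The share held at aNPC only is 8.33% for the FGF receptors and 39.1% for the inhibitors, against 19.2% near coding genes.

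In covered length over the full lists, H3K4me1 did not follow the division of H3K27ac. The H3K4me1 lists themselves covered 91.5 Mb at aNPC and 118.2 Mb at lA. The 10 loci held 135, 151 and 169 H3K4me1 peaks at aNPC, eA and lA. With the same number of peaks in every H3K4me1 list these counts were 135, 134 and 114, so that the order was reversed. The length they covered was higher at lA than at aNPC in 9 of 10 loci, all but Spry1, where 69.1% of coding loci were higher. At eA it was higher in 7 of 10, against 76.6%. With equal lists it was higher at lA than at aNPC in 5 of 10, so that the 9 of 10 rests on the longer lA list. The inhibitor and Etv loci, all lower in H3K27ac at lA, covered 34.5, 36.6 and 39.5 kb with H3K4me1 (mean −log10 q 15.1, 13.6 and 11.9). At the promoters, H3K4me1 was mixed. It was lower at lA than at aNPC at the promoter sites of Spry4 (82.7, 83.3 and 42.5), Dusp6 (61.6, 53.1 and 25.7), Etv5 (98.8, 82.2 and 84.6) and Egfr (82.3, 47.1 and 71.9). It was higher at the 2 promoter sites of Etv4, just inside the gene (56.5, 83.4 and 84.0) and 0.4 kb upstream (61.5, 58.7 and 69.0). It was also higher 0.4 kb upstream of Fgfr3 (63.6, 69.0 and 89.5) and at the most upstream promoter of Fgfr1 (20.7, 56.4 and 86.9). At Fgfr2, the 2 sites nearest the reference start were called at aNPC and not at lA. Its promoter site 4.4 kb downstream of the reference start was called at all stages. That site ranked highest at eA and higher at lA than at aNPC. The Fgfr2 site 2.1 kb downstream, also within 1 kb of a start, was higher at lA (64.7, 81.2 and 82.7). By the strongest H3K4me1 peak within 1 kb of any start, 4 of 4 inhibitor and Etv genes with one were lower at lA than at aNPC (median −25.1 points). Of the receptors, 0 of 4 were lower (median 8.61 points), and the median over coding genes was 0.02 points. With equal lists, 3 of 3 and 2 of 4 were lower. At aNPC the Etv4 and Egfr peaks taken lay 13027 and 152191 bp past the nearest coding start, so single sites are given above. Of 186 H3K4me1 sites, 87 were held at all stages, 34 at lA only and 16 at aNPC only, against 40.9%, 21.8% and 7.77% near coding genes. Promoter H3K4me1 was found in 8, 8 and 9 members, against 55.3%, 53.3% and 52.5% of coding genes. At lA it was found in 7 with a −log10 q of at least 5 and in 6 with equal lists. Spry2 lacked it at all stages and Spry1 held a weak peak at lA only, at percentile 9.99. Promoter H3K27ac was found in 10, 9 and 9 members, Etv4 being the one without, against 50.6%, 53.3% and 48.1%. Within 1 kb of any start it was found in 10 members at each stage, against 53.4%, 56.3% and 52.7%. Among the highest-ranked H3K4me1 sites was one at Etv4, 27.6 kb downstream of the start in Dhx8 (98.7, 99.7 and 87.5).

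Whether H3K4me1 was called before H3K27ac was counted at sites that gained an H3K27ac peak. At the 10 loci, 37 H3K27ac sites were absent at aNPC and present at eA or lA. H3K4me1 was called at aNPC at 24 of them, or 64.9% (95% Wilson interval 48.8 to 78.2%), against 52.3% near coding genes. Of the 18 such sites at FGF receptors it was called at 13. Over all 10 loci, 18 of the 37 sites were already held at eA, and there H3K4me1 was called at aNPC at 14, against 65.5%. The share rests on the overlap asked for, as it was 40.5% (15 of 37) where the centre of the H3K27ac site had to lie inside the H3K4me1 peak. At the 19 sites with H3K27ac at lA only, H3K4me1 was called at aNPC at 10 and at eA at 15, against 32.4% and 62.6%. At the 30 sites with H3K27ac at aNPC only, it was called at 21, 22 and 17 at aNPC, eA and lA, against 70.5%, 64.9% and 50.9%. These intervals cover the counting of sites only. Finally, 97 of 186 H3K4me1 sites had no H3K27ac at any stage, against 57.5%. They were most frequent at Fgfr2 (22 of 33), Spry2 (4 of 6) and Dusp6 (6 of 9).

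Other genes of the pathway came from a list of 52, of which 51 were found. Of 10 further feedback genes, including Spred and Dusp relatives, the start-site H3K27ac percentile was lower in 5 at eA and in 8 at lA than at aNPC, and in 6 at lA by 10 points or more. The shares over coding genes, given above for the members, were 36%, 54.7% and 18.7%. Chosen after their values were seen, Dusp4, another ERK phosphatase, stood at 95.8, 75.2 and 50.1, and Dusp5 at 89.2, 84.1 and 0.821. Of 6 ERK-responsive transcription factors it was lower in 4 at eA and in 6 at lA. Etv1, the remaining close relative of Etv4 and Etv5 and likewise singled out afterwards, stood at 97.3, 87.2 and 82.8. The 17 adaptors and kinases differed less. They were lower in 4 at eA and in 8 at lA, and by 10 points or more in 0 at eA and 1 at lA, near or below the shares over coding genes. Of 4 further receptors with a start-site peak at both stages, 1 was lower at each later stage. It was the FGF receptor gene Fgfr4, at 68.3, 50.3 and 13.99, named after its values were seen. Of the ligands, 3 of 9 were lower at eA and 4 of 7 at lA. Covered length at the feedback loci of the list was lower at lA in 7 of 10, and at the 5 further receptor loci in 0 of 5, against 47.9% of coding loci. It was also lower at lA in 7 of 11 ligand loci, 4 of 6 ERK-responsive factor loci and 8 of 17 adaptor and kinase loci, and so not at the feedback loci alone. Of the ligands, 8, 9 and 7 of 13 held promoter H3K27ac, against 50.6%, 53.3% and 48.1% of coding genes, with Fgf2 (which encodes the FGF2 protein) at eA and lA, and Fgf9 and Areg at aNPC and eA. Within 1 kb of a start, Fgf2 held a peak at all stages. The neuregulin receptor gene Erbb3 held promoter H3K27ac at eA and lA, and Frs2, which encodes an FGF receptor adaptor, at aNPC and eA. Within 1 kb of a start, Frs2 held a peak at all stages.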

How the data were processed

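ChIP-seq of both marks at aNPC, eA and lA came from 2 libraries per stage and mark, 12 of the 51 samples. Groups followed the sample titles. RNA-seq and knockdown samples were not used here, and 8 RNA libraries whose labels conflict were left unassigned. The authors aligned reads uniquely to mm9 with Bowtie, merged replicates with SAMtools (0.1.19 in the submitters' processing notes) and called peaks with MACS2 without an input. The deposited peak positions, summits and −log10 q values were used. Without an input, local chromatin openness and copy number enter the peaks; the merged depth is not given in the sources used here.

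Gene models came from GENCODE M1 (mm9), leaving out readthrough transcripts. The autosomes and both sex chromosomes were used. A promoter reached 1 kb before and 100 bp past a coding start, and overlap meant at least 1 bp. Percentiles were taken within a list, and backgrounds over 22235 coding genes. The members and lists were chosen with earlier results of these data known. The start-site percentile, the covered-length comparison and the printed sites were added after the peaks had been seen. All members were named, and of the pathway list those with promoter H3K27ac at some stages only; some listed genes are not reported here. Functions for overlaps, sites and covered length were tested on simulated intervals. Python 3.11.15, NumPy 2.4.6 and matplotlib 3.10.9 were used. Alternatives were a −log10 q of at least 5, equal list lengths, a 5 kb flank, a promoter that extended 1 kb each way from any start, site cores of 250 bp, and H3K4me1 at the site centre.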

Additional observations from a re-analysis of the deposited data

How the results depend on the processing

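Of 85 values of 27 results recomputed under the alternatives, 79 stayed within 1.5 times the reported count or within the 95% Wilson interval of the reported share. With equal list lengths, H3K4me1 covered length was higher at lA than at aNPC in 5 of 10 loci in place of 9, and H3K4me1 preceded H3K27ac at 79.2% (19 of 24) of sites in place of 64.9%. With a −log10 q of at least 5 that share was 79.3% (23 of 29), and with H3K4me1 required at the site centre 40.5%. With site cores, H3K27ac at all stages was found at 26.5% of inhibitor and Etv sites in place of 40.8%, and at 26.0% of all members' sites in place of 38.2%. Equal lengths and the higher −log10 q leave fewer peaks by construction; the other causes were not tested. The 6 inhibitor and Etv genes were lower at eA and at lA than at aNPC in 6 of 6, in covered length and in start-site percentile, with a −log10 q of at least 5 and with equal lists, and in covered length also with a 5 kb flank. The comparisons of covered length and start-site percentile were added after the peaks had been seen. No paired analysis was possible because the authors merged the 2 replicates before calling peaks. An absent peak lies under a threshold that depends on the unknown depth.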

Other observations

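Some H3K4me1 sites of the receptor and inhibitor loci ranked higher at each later stage. In an Fgfr2 intron 34.6 kb downstream of the start (chr7:137374667-137375617), H3K4me1 stood at percentiles 11.04, 59.3 and 96.1 at aNPC, eA and lA, and no H3K27ac peak was called there at any stage. Downstream of Dusp6, 22.6 kb from the start (chr10:98748010-98749038), it stood at 11.04, 20.1 and 78.3, again without H3K27ac. At the last exon region of Spry4, 14.1 kb from the start, it stood at 0.587, 59.9 and 61.7, and H3K27ac was called there at lA only. These sites were chosen after their values were seen.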
